A study of Mus musculus with 9 samples.

Results

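The renin-angiotensin genes and the membrane peptidases that cut angiotensins and other small peptides were followed in stromal cells of mouse bone marrow. The set held 9 genes. The rule takes them by name and uses no measured value, although earlier results of these data were known when the names were chosen. They are Agt, Enpep, Ace, Agtr1a, Agtr2, Anpep, Mme, Dpp4 and Lnpep. A gene was measured where an array row carried its symbol and no other. That gave 1 row each for 8 of the 9 genes, out of 21789 rows and 19938 genes with such a symbol. Lnpep, which encodes an insulin-regulated aminopeptidase that binds angiotensin IV, had no such row and was not analysed here.

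The arrays were Affymetrix Mouse Gene ST 1.0 arrays, and each deposited value was a log2 signal of 1 row in 1 array. All mice were of the C57Bl/6J strain as labelled (C57Bl/6 in the text on total marrow), and the sorted cells came from young adults of 6 to 12 weeks. The YFP-negative group was 1 array of 2300 cells that lacked CD45, lineage markers and YFP and carried CD54 and BP1, from IL7-Cre transgenic/Rosa-eYFP hetero mice. The YFP-positive group was 3 arrays of YFP-bearing cells from the same gate and the same kind of mice. The wild-type group was 3 arrays of cells sorted as CD45-Lin-CD54+BP1+ from wild type C57Bl/6J mice. The sorted YFP-positive and wild-type samples held 1800 to 10000 cells each. The total marrow group was 2 arrays of unsorted bone marrow cells from wild-type mice, each from 10 ng of RNA. In the reporter mice Cre is driven by Il7, the gene of a growth factor for B cell precursors, so YFP marks cells in which that driver is active or once was, and cells without YFP may still transcribe Il7.

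Angiotensinogen, the product of Agt, is the secreted precursor of all angiotensins. Renin releases angiotensin I from it, angiotensin-converting enzyme (Ace) trims that to angiotensin II, and angiotensin II acts through the receptors encoded by Agtr1a and Agtr2. Enpep encodes aminopeptidase A, which removes the first residue of angiotensin II and was named BP1 as a surface antigen of early B-lineage and stromal cells in mice. Anpep (aminopeptidase N, CD13) takes the next residue, Mme (neprilysin, CD10) cuts angiotensins, enkephalins and kinins inside the chain, and Dpp4 (CD26) removes N-terminal dipeptides from chemokines such as CXCL12 and from incretins.

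The sorted cells carried the markers of reticular stroma, the CXCL12-producing cells of the marrow. All 7 of the 7 markers used (Lepr, Cxcl12, Kitl, Pdgfrb, Ebf3, Adipoq and Foxc1) were called higher in each sorted group than in total marrow. Between sorted groups 0 of them were called, where 0% to 4.56% of all rows were called. The YFP-negative array lay lower than the rest as deposited, with a median signal of 3.46 over the rows tested, against 4.51 to 4.60 in the other 8 arrays. Comparisons with that array therefore used cyclic loess normalized values, and comparisons without it used the deposited values. With a lone YFP-negative array, the test borrowed the spread of the other groups, and a batch of that array and its cell group cannot be told apart. Il7 was 7.03 in the YFP-negative array after loess, beside 7.21, 7.78 and 6.49 in the YFP-positive arrays and 7.78, 7.64 and 7.32 in wild type. As deposited it read 5.87, beside 7.34, 7.87 and 6.41 in YFP-positive and 7.97, 7.95 and 7.54 in wild type, so whether it lies within the YFP-positive range depends on the scaling.

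The start regions of 5 members are shown because Agt, Mme, Enpep and Anpep were all called higher in sorted cells than in total marrow and Dpp4 was called lower. Each is a 300-base window from 250 bases before to 50 bases after the annotated start, on the gene's own strand, from RefSeq on GRCm38.p6. For Mme the window at the first of its 3 annotated starts is given. Capitals mark the motif letters found, and the windows are Agt at chr8:124569657-124569956 (minus strand), Mme at chr3:63294961-63295260 (plus strand), Enpep at chr3:129332700-129332999 (minus strand), Anpep at chr7:79848161-79848460 (minus strand) and Dpp4 at chr2:62412182-62412481 (minus strand).
Agt: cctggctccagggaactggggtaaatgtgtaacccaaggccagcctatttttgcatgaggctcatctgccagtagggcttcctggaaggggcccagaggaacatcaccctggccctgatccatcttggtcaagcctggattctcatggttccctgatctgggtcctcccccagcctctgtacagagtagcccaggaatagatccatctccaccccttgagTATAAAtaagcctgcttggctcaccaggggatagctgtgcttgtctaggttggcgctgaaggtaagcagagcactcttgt
Mme: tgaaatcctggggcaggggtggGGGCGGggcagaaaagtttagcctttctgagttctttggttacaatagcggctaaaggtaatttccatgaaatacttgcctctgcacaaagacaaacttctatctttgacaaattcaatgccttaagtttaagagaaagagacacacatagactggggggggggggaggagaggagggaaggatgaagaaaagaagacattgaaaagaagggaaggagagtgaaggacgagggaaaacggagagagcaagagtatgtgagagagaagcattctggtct
Enpep: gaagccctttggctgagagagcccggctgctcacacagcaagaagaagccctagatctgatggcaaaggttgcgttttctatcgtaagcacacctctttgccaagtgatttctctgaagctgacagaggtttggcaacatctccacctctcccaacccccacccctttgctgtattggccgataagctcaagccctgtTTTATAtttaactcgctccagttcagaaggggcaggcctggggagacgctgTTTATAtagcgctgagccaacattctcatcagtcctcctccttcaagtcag
Anpep: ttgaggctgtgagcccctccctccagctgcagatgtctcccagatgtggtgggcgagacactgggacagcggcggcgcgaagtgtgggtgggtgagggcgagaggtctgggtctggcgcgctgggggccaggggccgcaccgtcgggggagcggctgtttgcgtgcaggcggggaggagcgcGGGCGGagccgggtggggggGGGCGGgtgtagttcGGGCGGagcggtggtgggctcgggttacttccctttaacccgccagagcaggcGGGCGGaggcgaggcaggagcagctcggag
Dpp4: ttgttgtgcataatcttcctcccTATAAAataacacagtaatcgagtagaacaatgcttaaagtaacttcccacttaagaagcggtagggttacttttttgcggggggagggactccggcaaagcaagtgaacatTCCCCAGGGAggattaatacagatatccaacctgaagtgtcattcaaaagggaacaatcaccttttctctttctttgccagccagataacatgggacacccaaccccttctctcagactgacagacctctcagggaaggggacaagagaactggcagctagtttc

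The motifs were searched on both strands of these windows and of all 32851 mouse windows in the same table, where overlapping windows of a gene count separately. TATAAA, the TATA box letters, stood at position −30 from the start of Agt and was found in 13.6% of all windows. It also lay on the opposite strand of the Enpep window at positions −52 and −1, and in the Dpp4 window at position −227. GGGCGG, the GC box letters, occurred 4 times in the Anpep window and 1 time in the printed Mme window, against 35.7% of all windows with at least 1 copy. The letters bound by early B cell factors (TCCC and GGGA with any 2 bases between them) were found in the Dpp4 window only among the 5 printed, at position −115, and in 0.904% of all windows. TTGCNNCAA was in none of the 5 and in 2.08% of all windows. That string was searched as a C/EBP motif but differs in spacing from the usual C/EBP site. Whether the windows hold C/EBP sites was therefore not tested. These matches describe letters and were not tested as sites. No motif of the 4 searched was found in all 4 printed windows of the genes higher in sorted cells.

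Agt was far higher in sorted cells than in total marrow. As deposited, its log2 signal was 11.35, 10.87 and 10.66 in the 3 YFP-positive arrays and 11.21, 11.34 and 11.18 in the 3 wild-type arrays, against 4.61 and 4.67 in the 2 total marrow arrays. Every sorted array was far above both marrow arrays, and within each sorted array Agt ranked between the 99.0 and 99.5 percentile of all rows, against 50.6 and 51.7 in total marrow. The change was 6.32 ± 0.20 log2 units in YFP-positive over total marrow (SE, 80.1-fold, limma adjusted p = 3.91e-07) and 6.60 ± 0.20 in wild type over total marrow (97.2-fold, adjusted p = 2.95e-07). In an RNA pool such as these, fewer cells of a type and less RNA per cell cannot be told apart. The YFP-negative array read 10.11 as deposited and 10.82 after loess, where the total marrow arrays stood at 3.96 and 4.11, a difference of 6.78 ± 0.19 (adjusted p = 1.16e-06). After loess the marrow values of Agt were below the median of all values, 4.53, so that difference is read as a lower bound on its scale.

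Between sorted groups Agt did not pass the test on the scales used. The YFP-positive mean was 10.96 ± 0.35 and the wild-type mean 11.24 ± 0.09 (SD, n = 3 each, deposited), a difference of −0.28 with a 95% interval from −0.69 to 0.13 (limma adjusted p = 0.447). The YFP-negative array differed from YFP-positive by −0.13 (interval −0.55 to 0.29) and from wild type by −0.12 (interval −0.54 to 0.30) after loess. On deposited values these were −0.85 and −1.13 and were called, close to the −0.91 and −0.88 by which the median row of that array differed.

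**Figure D1:**
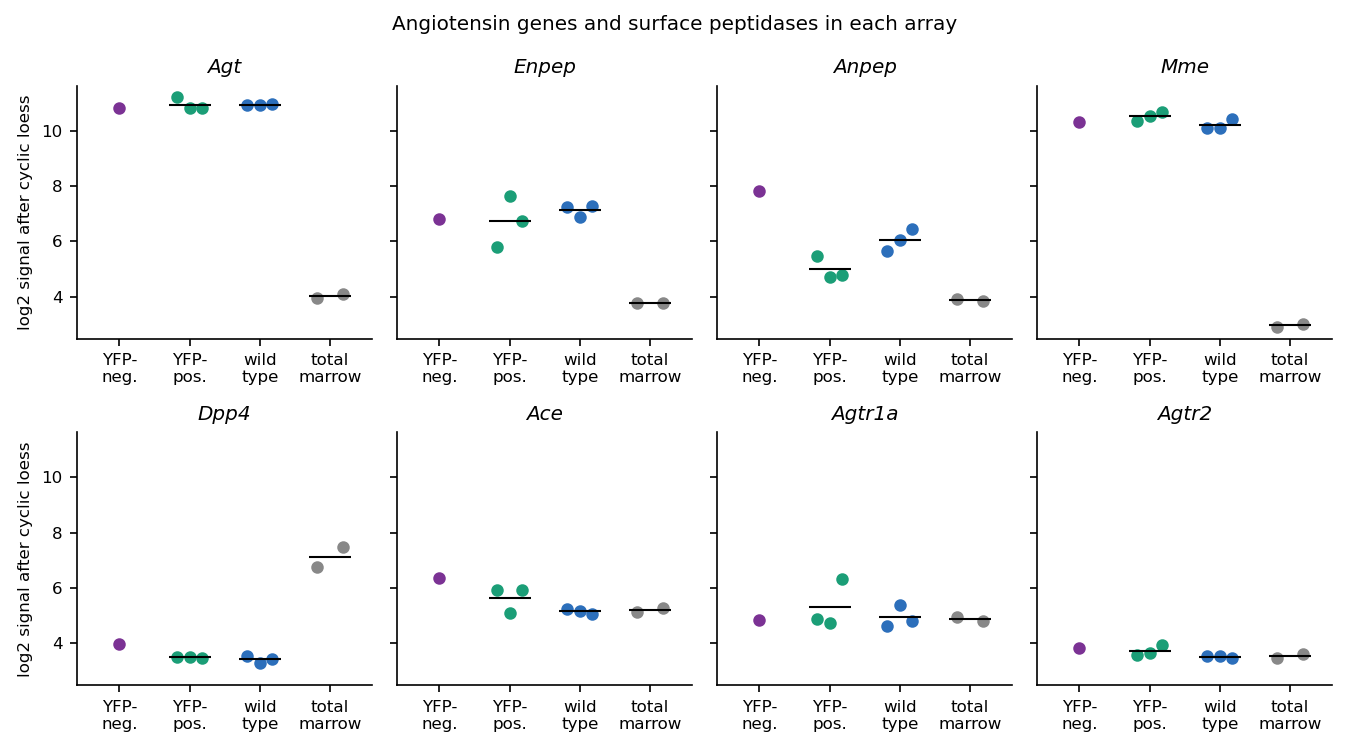
Log2 signal after cyclic loess (vertical axis) of the 8 measured genes in each of the 9 arrays, with 1 panel per gene, 1 dot per array and a horizontal line at the mean of each group with more than 1 array. Agt and Mme lay between 10.09 and 11.20 in all 7 sorted arrays and between 2.90 and 4.11 in total marrow, while Dpp4 ran the other way.

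Mme, the gene of neprilysin, was also far higher in sorted cells than in total marrow. It read 10.52, 10.60 and 10.53 in the YFP-positive arrays and 10.36, 10.52 and 10.66 in the wild-type arrays, against 3.51 and 3.53 in total marrow, so the sorted arrays formed a narrow band well above total marrow. The change over total marrow was 7.03 ± 0.12 in YFP-positive (limma adjusted p = 6.41e-08) and 6.99 ± 0.12 in wild type (adjusted p = 5.89e-08). The YFP-negative array read 9.52 as deposited and 10.32 after loess, which was 7.36 ± 0.20 above total marrow (adjusted p = 1.08e-06). Because Mme in total marrow lay under the median of all values on both scales (4.43 as deposited), the 3 changes are read as lower bounds. Between YFP-positive and wild type the difference was 0.04, with an interval from −0.22 to 0.29, the narrowest of the 8 genes.

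Enpep encodes BP1, the antigen on which the cells were sorted, so its difference from total marrow was set in part by the gate and is given as a description of the sort. The YFP-positive arrays read 5.91, 7.73 and 6.66 and the wild-type arrays 7.41, 7.18 and 7.49, against 4.108 and 3.997 in total marrow. All sorted arrays were above total marrow, and the YFP-positive arrays were spread over a wider range than the wild-type arrays although all were sorted on the same antigen. The change over total marrow was 2.71 ± 0.45 in YFP-positive (limma adjusted p = 0.00303), 3.31 ± 0.45 in wild type (adjusted p = 0.00109) and, after loess, 3.04 ± 0.62 in YFP-negative (adjusted p = 0.0102), all read as lower bounds since Enpep in total marrow lay under the median of all values. The YFP-negative array read 5.63 as deposited and 6.81 after loess, inside the YFP-positive range of 5.79 to 7.64 after loess. YFP-positive minus wild type was −0.59 with an interval from −1.53 to 0.34 (adjusted p = 0.471), which does not resolve a change of 1 log2 unit.

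BP1 is also carried by early B-lineage cells of the mouse, so B-lineage markers were read beside Enpep. Mme was read beside them too, and it stood at 3.51 and 3.53 as deposited in total marrow. Of 8 measured markers, 7 were called lower in each sorted group than in total marrow, and Ebf1, a factor that stromal cells transcribe as well, was called higher. Their summed linear signal after loess, of which Ebf1 was the strongest member, was 824 in the YFP-negative array, 782 to 1180 in YFP-positive and 826 to 1060 in wild type, against 5710 to 5930 in total marrow. Vpreb1, part of the surrogate light chain of pre-B cells, read 5.33 in the YFP-negative array, 4.25, 6.02 and 4.83 in YFP-positive and 5.23, 4.98 and 6.22 in wild type as deposited, against 10.29 and 10.26 in total marrow. The part of B-lineage cells in the Enpep and Mme signals was not tested.

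Anpep, the gene of aminopeptidase N, was the member that varied most clearly between sorted groups. As deposited it read 5.51, 4.76 and 4.78 in the YFP-positive arrays and 5.77, 6.24 and 6.55 in the wild-type arrays, against 4.07 and 3.95 in total marrow. The 3 sets of values did not overlap, with total marrow lowest and wild type highest. The change over total marrow was 1.01 ± 0.29 in YFP-positive (limma adjusted p = 0.0366) and 2.18 ± 0.29 in wild type (adjusted p = 0.00103), both read as lower bounds because Anpep in total marrow was under the median of all values. The YFP-positive call was lost without either total marrow array (adjusted p = 0.138 and 0.169), without replicate 1 of YFP-positive (0.0583) and without replicate 2 of wild type (0.0606). It was also lost with all rows of the table (0.0578).

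Anpep in YFP-positive minus wild type was −1.17 ± 0.26 log2 units, with an interval from −1.78 to −0.56, which did not pass the test over all rows (limma adjusted p = 0.199). In that comparison 0% of the 21789 rows were called, 3250 rows had an unadjusted p under 0.05, and the smallest adjusted p was 0.068. Trend and robust moderation in limma called 9 rows.

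The YFP-negative array had the highest Anpep signal of the 9 arrays after loess. It read 6.54 as deposited, against 4.76 to 5.51 in YFP-positive and 5.77 to 6.55 in wild type, and 7.80 after loess, against 4.70 to 5.46 in YFP-positive and 5.64 to 6.45 in wild type. After loess it exceeded YFP-positive by 2.82 ± 0.37 (interval 1.96 to 3.68, 7.05-fold, limma adjusted p = 0.0156), wild type by 1.75 ± 0.37 (interval 0.89 to 2.61, 3.36-fold, adjusted p = 0.0457) and total marrow by 3.93 ± 0.39 (15.2-fold, adjusted p = 0.000286), the last again read as a lower bound. As deposited, where the median row of that array lies lower, 1 wild-type array stood just above it at 6.55. On that scale the difference from wild type was 0.35 (limma adjusted p = 0.392), while the difference from YFP-positive was 1.52 and was still called. The percentile of Anpep among all rows of the same array, taken on deposited values and untouched by a shift of a whole array, was 88.7 in YFP-negative, 64.1, 53.1 and 53.5 in YFP-positive, 66.2, 71.1 and 75.9 in wild type, and 41.5 and 38.9 in total marrow. The call against wild type was lost without either total marrow array (adjusted p = 0.0933 each) and without replicate 1 (0.0867), replicate 2 (0.101) or replicate 3 (0.0556) of wild type. In fits of only the 2 groups compared, neither call passed (adjusted p = 0.227 against YFP-positive and 0.0724 against wild type).

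**Figure D2:**
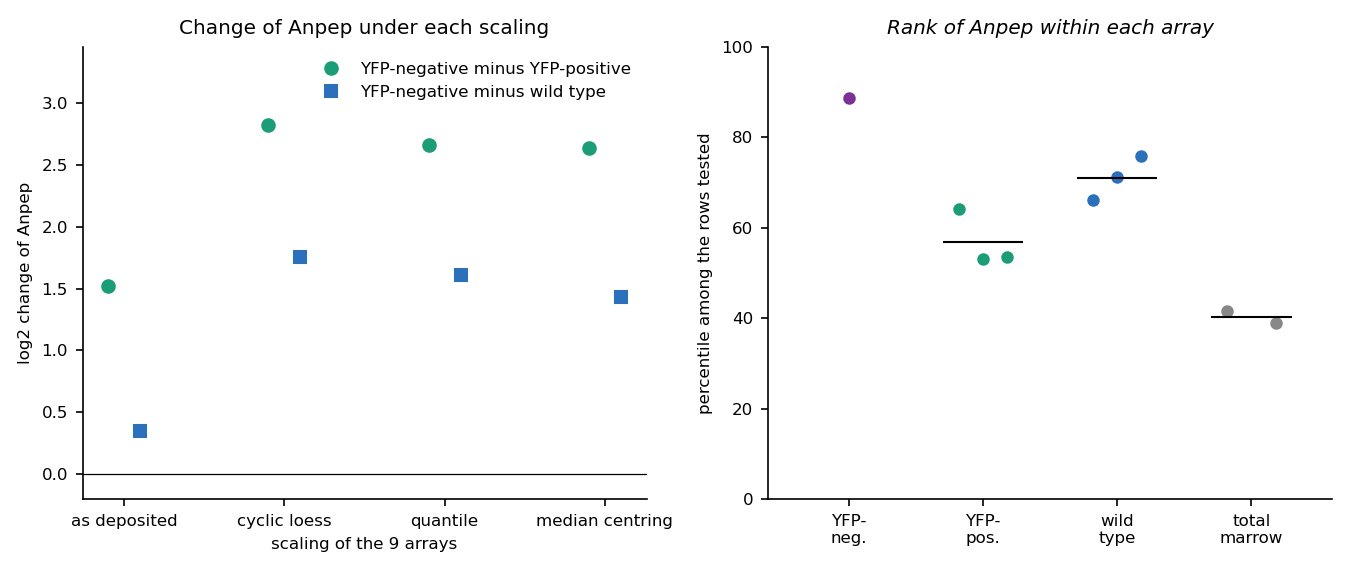
Left, log2 change of Anpep in the YFP-negative array minus the mean of YFP-positive (circles) and of wild type (squares), under 4 scalings of the 9 arrays on the horizontal axis. Right, percentile of Anpep among the 21789 rows of each array, with 1 dot per array and a line at the group mean. The change is above 0 under all 4 scalings and smallest on deposited values, at 1.52 and 0.35, and the YFP-negative array has the highest percentile, 88.7.

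Aminopeptidase N is also a surface protein of myeloid cells, pericytes and fibroblasts, so the markers of the first 2 were read beside it. The summed neutrophil signal after loess (7 markers) was 151 in the YFP-negative array, 175 to 560 in YFP-positive and 83 to 102 in wild type, against 16000 to 16100 in total marrow, where Anpep was lowest. The 4 monocyte markers summed to 65 in YFP-negative, 74.7 to 352 in YFP-positive and 54.6 to 61 in wild type, against 4090 to 4600 in total marrow. Mpo, the myeloperoxidase gene of immature granulocytes, read 3.91 after loess in the YFP-negative array and 7.66, 7.91 and 6.14 in YFP-positive, against 3.98, 3.79 and 4.52 in wild type and 10.90 and 11.04 in total marrow. Of the 7 neutrophil markers, Mpo was called lower in YFP-negative than in YFP-positive (−3.33 ± 0.63, limma adjusted p = 0.0373) and Mmp8, a collagenase of neutrophil granules, was called higher (0.74, adjusted p = 0.0237), with Mmp8 also higher than in wild type (0.93, adjusted p = 0.0152). Mmp8 read 3.99 in YFP-negative after loess, under the median of all values, 3.27, 3.27 and 3.23 in YFP-positive and 3.04, 3.04 and 3.10 in wild type. The 5 smooth muscle and pericyte markers summed to 226 in the YFP-negative array, above the 90 to 178 of YFP-positive, the 124 to 207 of wild type and the 130 to 157 of total marrow. Rgs5, a regulator of G protein signalling used to mark pericytes, gave the largest part of that sum with 7.06 after loess. The other 4 markers did not all follow it. Acta2, Myh11 and Cspg4, also among the 5, read 5.33, 4.21 and 3.97 in YFP-negative after loess. Each was above every YFP-positive array, whose highest values were 4.57, 4.15 and 3.88. The highest wild-type values were 6.58, 4.32 and 3.71. Myh11 and Cspg4 lay under the median of all values. Tagln, a smooth muscle actin-binding protein gene, read 4.14 in YFP-negative, 4.54, 4.27 and 3.94 in YFP-positive and 4.90, 5.71 and 5.75 in wild type, and the median change of the 5 markers was 0.43 against YFP-positive and 0.0071 against wild type. Rgs5 was called higher in YFP-negative than in total marrow (3.43 ± 0.85, limma adjusted p = 0.0224) and not called against YFP-positive (1.80 ± 0.80, adjusted p = 0.245) or wild type (2.43 ± 0.80, adjusted p = 0.134). The part of these cells in the Anpep signal was not tested.

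Dpp4 was the only member called lower in sorted cells than in total marrow. It read 3.51, 3.57 and 3.61 in YFP-positive and 3.54, 3.28 and 3.36 in wild type, against 6.71 and 7.42 in total marrow. All sorted values were close together and under the median of all values, so the size of the difference is a bound. The change was −3.50 ± 0.21 in YFP-positive (limma adjusted p = 9.44e-06), −3.67 ± 0.21 in wild type (adjusted p = 6.62e-06) and −3.15 ± 0.26 in YFP-negative after loess (adjusted p = 0.000124). The YFP-negative array read 2.93 as deposited and 3.96 after loess, and its differences from YFP-positive (0.46, interval −0.12 to 1.05) and from wild type (0.55, interval −0.04 to 1.13) lay between values under that median and are not resolved.

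CD26 is known from T and NK cells among others, and the markers of those cells moved the same way as Dpp4. All 4 measured T and NK markers (Cd3e, Cd3g, Il7r and Nkg7) were called lower in each sorted group than in total marrow. They summed after loess to 70.1 in YFP-negative, 56.6 to 70.1 in YFP-positive and 51.3 to 55.7 in wild type, against 1310 to 1440 in total marrow. Markers of other blood lineages were called lower in each sorted group as well. These were 7 of 7 neutrophil, 4 of 4 monocyte, 3 of 3 erythroid and 7 of 8 B-lineage markers. The shared direction is thus not particular to T and NK cells. The part of T and NK cells in the total marrow signal of Dpp4 was not tested.

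Ace, the converting enzyme, was not called in YFP-positive or wild-type cells against total marrow. It read 5.99, 5.15 and 5.89 in YFP-positive and 5.37, 5.35 and 5.17 in wild type, against 5.29 and 5.39 in total marrow. The wild-type and total marrow arrays overlapped, and 2 of the 3 YFP-positive arrays lay above all of them. YFP-positive minus total marrow was 0.33 (interval −0.24 to 0.90, limma adjusted p = 0.337) and wild type minus total marrow was −0.05 (interval −0.62 to 0.52, adjusted p = 0.938). Without replicate 2 of YFP-positive, the low array of its group, the first of these became 0.60 and was called (adjusted p = 0.0177).

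In the YFP-negative array Ace read 5.09 as deposited, the lowest of the 9 arrays, and 6.35 after loess, the highest, so its direction depends on the scaling. After loess it was 1.16 ± 0.34 above total marrow (limma adjusted p = 0.042), 1.20 ± 0.32 above wild type (adjusted p = 0.0813) and 0.71 ± 0.32 above YFP-positive (adjusted p = 0.25). On deposited values the same differences were −0.25, −0.20 and −0.59. The call against total marrow held in 7 of 17 alternatives. It was lost with quantile normalization (1.12, adjusted p = 0.0606), median centring (0.84, 0.0734), all rows of the table (0.0729), without either total marrow array (0.147 and 0.101), and without replicate 1 (0.0659), 2 (0.0698) or 3 (0.0640) of wild type. The difference from wild type was called with array weights (0.0330) and without replicate 2 of YFP-positive (0.0202). Its percentile among the rows of its own array was 75.3, against 70.3, 59.1 and 72.3 in YFP-positive, 60.9, 59.7 and 58.4 in wild type, and 59.5 and 61.6 in total marrow. Ace is known from endothelium, and all 7 endothelial markers (Pecam1, Cdh5, Tek, Kdr, Emcn, Erg and Stab2) stood under the median of all values in every sorted group, with a summed signal after loess of 92.7 in YFP-negative, 84.9 to 92.2 in YFP-positive and 85.4 to 87.9 in wild type, against 177 to 200 in total marrow.

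Neither angiotensin receptor gene was called in any of the 6 comparisons on the scale used for it. On deposited values, where the median row of the YFP-negative array lies lower, both were called lower in YFP-negative than in YFP-positive (limma adjusted p = 0.0304 for Agtr1a at −1.73 and 0.0134 for Agtr2 at −0.78). Agtr1a, the main receptor of angiotensin II, read 4.91, 4.77 and 6.36 in YFP-positive and 4.70, 5.49 and 4.84 in wild type, against 5.02 and 4.86 in total marrow. All but replicate 3 of YFP-positive lay between 4.70 and 5.49. YFP-positive minus total marrow was 0.41 (interval −0.69 to 1.51, limma adjusted p = 0.534) and turned to −0.093 without that replicate, and YFP-positive minus wild type was 0.34 (interval −0.64 to 1.32, adjusted p = 0.682) and turned to −0.17 without it. Replicate 3 of YFP-positive also read 7.82 for Adm, the gene of the vasodilator adrenomedullin, where the other 2 YFP-positive arrays read 3.84 and 5.23 and the wild-type arrays 5.10 to 5.40, and it had the lowest array weight in limma (0.311, against up to 1.69). The YFP-negative array read 3.62 for Agtr1a as deposited and 4.85 after loess, within the 4.61 to 5.38 of wild type.

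Agtr2, the second angiotensin II receptor, was weak in every array. It read 3.59, 3.72 and 4.13 in YFP-positive and 3.56, 3.47 and 3.43 in wild type, against 3.44 and 3.56 in total marrow, and 3.03 in the YFP-negative array as deposited (3.82 after loess). All 9 values were under the median of all values, and of the 8 measured genes it was the only 1 that failed a filter asking for that median in at least 2 arrays. Its differences, from −0.01 to 0.33 log2 units over the 6 comparisons, are not resolved at this level of signal.

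Counted together, 4 of the 8 measured members were called higher and 1 lower in YFP-positive than in total marrow, where 29.5% of all rows were called, 11% as higher and 18.5% as lower. In wild type over total marrow 4 were higher and 1 lower, where calls covered 24.3% of rows, 10.4% as higher and 13.9% as lower. In YFP-negative over total marrow 5 were higher and 1 lower, with Ace added on loess values in a call that held in 7 of 17 alternatives, where calls covered 26.2% of rows, 13% as higher and 13.2% as lower. Enpep is among the higher members each time through the sort. The 3 comparisons share the same 2 total marrow arrays. The median change of the 8 members over total marrow was 2.10 in YFP-negative, 0.71 in YFP-positive and 1.12 in wild type, beside medians of all rows of −0.00, 0.09 and 0.00.

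Between sorted groups 1 of 8 members was called in YFP-negative minus YFP-positive, where 3.98% of all rows were called, 2.62% as higher and 1.36% as lower, and 1 of 8 in YFP-negative minus wild type, where 4.56% were called, 3% as higher and 1.57% as lower. That member was Anpep in both. The split of all calls with the YFP-negative array depends on the scaling. As deposited, 101 rows were higher and 16421 lower against YFP-positive, 73 higher and 16280 lower against wild type, and 882 higher and 14784 lower against total marrow, and median centring gave 5385 higher and 3602 lower against total marrow. In YFP-positive minus wild type 0 of 8 were called by limma, and Anpep alone had an unadjusted p under 0.05. Of the other intervals for YFP-positive minus wild type, those of Agt, Mme, Dpp4, Agtr2 and Ace stayed within 1 log2 unit of 0, and those of Enpep and Agtr1a did not.

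**Figure D3:**
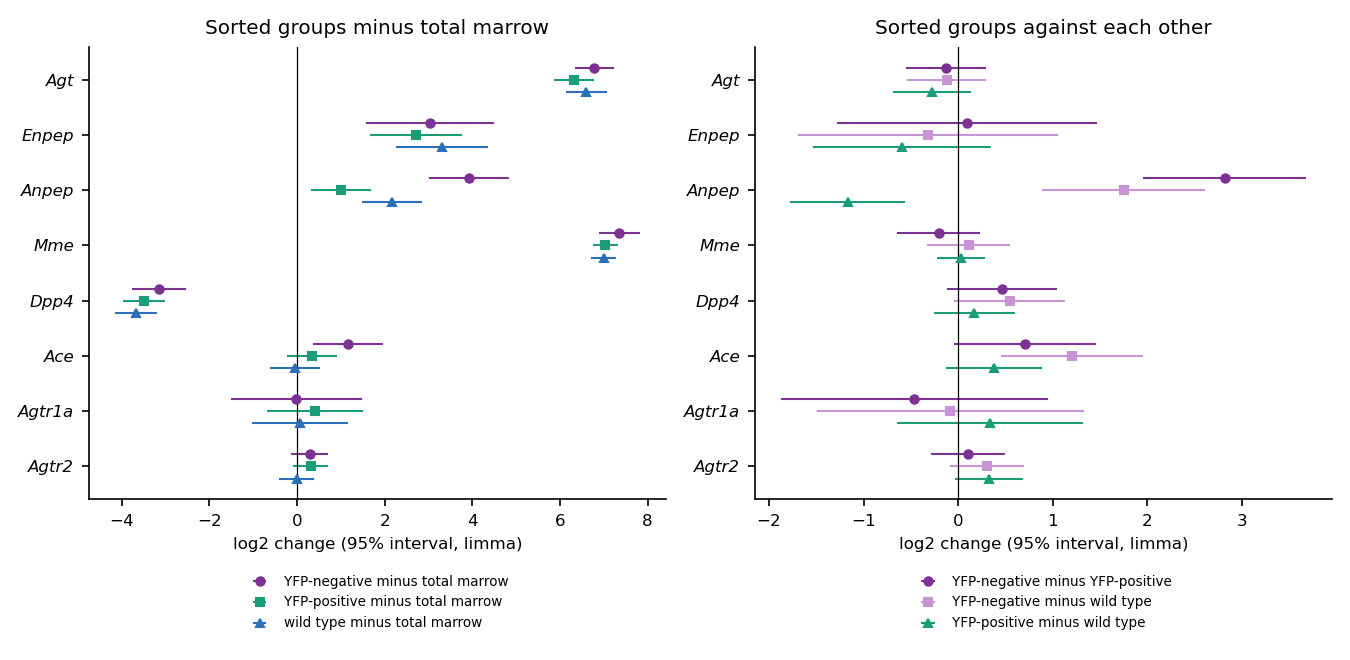
Log2 change with its 95% interval from limma (horizontal axis) for the 8 measured genes (vertical axis). Left, the 3 sorted groups minus total marrow, where Agt, Mme, Enpep and Anpep lie above 0 and Dpp4 lies below 0 in all 3. Right, the sorted groups against each other, where the Anpep intervals leave out 0 in all 3 and the Ace interval does so in YFP-negative minus wild type. Comparisons with the YFP-negative array use loess values and the others deposited values.

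Over the 7 sorted arrays the members' correlations ran in both directions. After loess the correlation of Ace with Dpp4 was 0.72, that of Ace with Agtr2 0.70, that of Agtr1a with Agtr2 0.65 and that of Anpep with Dpp4 0.61. The correlation of Agt with Enpep was −0.70, while that of Agt with Mme was −0.28, that of Enpep with Mme 0.03 and that of Anpep with Mme −0.42. These describe 7 arrays of 3 groups that share their scaling, and the correlation over all 9 arrays, such as 0.997 for Agt with Mme, mostly restates the step between sorted cells and total marrow. The genes whose loess values followed Agt most closely over the 9 arrays were Gpx3, Islr, Denn2b, Ms4a4d and Gas6, all with a Pearson correlation of 0.999. Enpep was followed most closely by Reck at 0.990, Cebpa at 0.988, Pdgfd at 0.987, Ak1 at 0.986 and Wif1 at 0.984. All 10 share the same step. Gpx3 had a mean of 11.43 in YFP-negative, 11.68 in YFP-positive and 11.35 in wild type, against 4.60 in total marrow.

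The other genes of the renin-angiotensin system included none called higher in sorted cells. Of 16 listed, 12 were measured. Of the 12, none was called higher and the same 4 were called lower in each sorted group than in total marrow, with a median change of −0.23 in YFP-negative, −0.63 in YFP-positive and −0.22 in wild type. Over all rows, 13%, 11% and 10.4% were higher and 13.2%, 18.5% and 13.9% lower in these 3 groups, so few of 12 genes would be higher at the share of all rows. Ctsg, the neutrophil protease cathepsin G that can form angiotensin II, read 4.93, 5.20 and 4.20 in YFP-positive and 3.73, 3.63 and 4.63 in wild type, against 10.89 and 10.64 in total marrow, a change of −5.99 ± 0.37 in YFP-positive (limma adjusted p = 1.28e-05) and −6.77 ± 0.37 in wild type (adjusted p = 5.92e-06). Cpa3, the mast cell carboxypeptidase, changed by −2.85 ± 0.32 in YFP-positive and −3.30 ± 0.32 in wild type. Prep and Prcp, prolyl peptidases that cut angiotensins, changed by −1.51 ± 0.17 and −1.38 ± 0.13 in YFP-positive and by −1.37 ± 0.17 and −1.25 ± 0.13 in wild type. In YFP-negative these 4 changed by −7.17, −3.15, −1.87 and −1.34 after loess. The neutrophil markers were lower along with Ctsg, 7 of 7 in each sorted group, and their part in the list's count was not tested. Between sorted groups 0 of the 12 were called in any of the 3 comparisons. Over all rows, 3.98% were called in YFP-negative minus YFP-positive, 4.56% in YFP-negative minus wild type and 0% in YFP-positive minus wild type. At these shares, nothing particular to the list is read from that count.

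Genes that partner or follow the angiotensin receptors had calls in both directions. Of 12 measured of 13 listed (Ednra had no row), 2 were higher and 3 lower in YFP-positive than in total marrow, 1 higher and 3 lower in wild type, and 3 higher and 3 lower in YFP-negative. Over all rows, 29.5% were called in YFP-positive, 24.3% in wild type and 26.2% in YFP-negative, and nothing particular to the list is read from its counts. Gna11, a G protein subunit through which the type 1 receptor signals, read 8.40, 7.82 and 7.50 in YFP-positive and 7.99, 8.20 and 8.21 in wild type, against 6.25 and 6.24 in total marrow, a change of 1.66 ± 0.24 (limma adjusted p = 0.00156) in YFP-positive and 1.89 ± 0.24 (adjusted p = 0.0008) in wild type. Arrb2, a beta-arrestin that binds the activated receptor, was lower by −4.16 ± 0.53 in YFP-positive and −4.01 ± 0.53 in wild type. Mtus1, which encodes a binding partner of the type 2 receptor, was lower by −2.11 ± 0.16 in YFP-positive and −2.38 ± 0.16 in wild type. Nr3c2, the mineralocorticoid receptor, was higher by 1.15 ± 0.21 in YFP-positive (adjusted p = 0.00488) and by 1.09 ± 0.25 in YFP-negative (adjusted p = 0.0162), between values under the median in both groups. Agtrap, which encodes a protein bound to the type 1 receptor, was not called and read 9.09, 7.33 and 8.81 in YFP-positive and 7.91, 7.82 and 7.41 in wild type, against 8.53 and 8.60 in total marrow. Cyp11b2, the aldosterone synthase gene, was called higher in YFP-negative than in YFP-positive (0.77, adjusted p = 0.0341) and wild type (0.84, adjusted p = 0.0273), but at 4.16 after loess it too lay under the median.

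Relatives of Enpep and Anpep were read in the same way. Of the 8 other aminopeptidases of the M1 family, 0 were called higher in any sorted group than in total marrow, and 4 were lower in YFP-negative, 3 in YFP-positive and 2 in wild type. With 13%, 11% and 10.4% of all rows higher in these groups, 0 of 8 higher is near the share of all rows. Over all rows, 13.2% were lower in YFP-negative, 18.5% in YFP-positive and 13.9% in wild type. Lta4h, which makes leukotriene B4, read 5.61, 5.38 and 5.37 in YFP-positive and 5.13, 5.58 and 4.87 in wild type, against 8.81 and 8.52 in total marrow (−3.21 ± 0.22, limma adjusted p = 2.1e-05, in YFP-positive and −3.47 ± 0.22, adjusted p = 1.25e-05, in wild type). Rnpep, aminopeptidase B, changed by −1.86 ± 0.24 in YFP-positive and −1.32 ± 0.24 in wild type. Npepps, a cytosolic aminopeptidase, changed by −1.33 ± 0.26 in YFP-positive and was not called in wild type. Between sorted groups, Rnpepl1 was lower in YFP-negative than in wild type by −1.37 ± 0.28 (adjusted p = 0.0434), the only call of this family.

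Relatives of Mme had calls in both directions. Phex, an endopeptidase of bone cells that acts in phosphate balance, read 8.98, 9.20 and 8.73 in YFP-positive and 7.85, 7.82 and 7.73 in wild type, against 3.40 and 3.65 in total marrow. It was thus higher in every sorted array, by 5.44 ± 0.16 (limma adjusted p = 3.06e-07) in YFP-positive, 4.27 ± 0.16 (adjusted p = 7.71e-07) in wild type and 5.23 ± 0.20 (adjusted p = 2.97e-06) in YFP-negative after loess. Phex in total marrow lay under the median of all values, so these changes are read as lower bounds. All 3 YFP-positive values of Phex were also above all 3 wild-type values, by 1.18 ± 0.14 on average, which missed the threshold over all rows (limma adjusted p = 0.0806). Ece1, an endothelin-converting enzyme, was higher by 2.63 ± 0.29 in YFP-positive and 2.75 ± 0.29 in wild type. Kel, the erythroid Kell antigen gene, was lower by −1.92 ± 0.19 and Ece2 by −1.35 ± 0.22 in YFP-positive, beside −2.07 ± 0.19 and −0.90 ± 0.22 in wild type. Of the 6 relatives measured, 2 were higher and 2 lower in YFP-positive and in wild type, and 2 higher and 1 lower in YFP-negative, where 29.5%, 24.3% and 26.2% of all rows were called in either direction.

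Fap, the closest relative of Dpp4 among prolyl peptidases and a surface protein of activated fibroblasts, ran opposite to Dpp4. It read 8.92, 9.47 and 8.86 in YFP-positive and 9.28, 9.30 and 9.66 in wild type, against 3.23 and 2.91 in total marrow. Those marrow values lay under the median of all values, so the changes are read as lower bounds. The change was 6.01 ± 0.22 (limma adjusted p = 8.05e-07) in YFP-positive, 6.34 ± 0.22 (adjusted p = 5.66e-07) in wild type and 6.95 ± 0.29 (adjusted p = 4.12e-06) in YFP-negative after loess. Of the 8 prolyl peptidases in this list, Fap was the only 1 called against total marrow in each sorted group. Over all rows, 26.2% were called in YFP-negative, 29.5% in YFP-positive and 24.3% in wild type. The list leaves out Prep and Prcp, which were counted with the renin-angiotensin genes and were called lower in each sorted group.

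Genes of the kinin system, whose peptides Ace and neprilysin also degrade, included members called in both directions. Kng1, a kininogen that is the precursor of bradykinin, read 10.75, 10.75 and 10.58 in YFP-positive and 10.66, 10.73 and 10.72 in wild type, against 3.93 and 3.22 in total marrow, and 9.91 in the YFP-negative array as deposited (10.68 after loess). The change was 7.11 ± 0.20 in YFP-positive (limma adjusted p = 2.66e-07), 7.12 ± 0.20 in wild type (adjusted p = 2.41e-07) and 7.67 ± 0.24 in YFP-negative (adjusted p = 1.48e-06). Kng1 in total marrow lay under the median of all values, so its changes are read as lower bounds. Kng2, its close copy in the mouse genome, changed by 5.52 ± 0.22 in YFP-positive, 5.70 ± 0.22 in wild type and 5.63 ± 0.24 in YFP-negative. Array probes may not separate the copies, so which of them carried the signal is uncertain. Of 9 kallikrein-kinin genes measured of 10 listed (Klkb1 had no row), 3 were higher and 2 lower in YFP-positive, 2 higher and 1 lower in wild type, and 2 higher and 1 lower in YFP-negative, beside 29.5%, 24.3% and 26.2% of all rows called. Bdkrb2, the constitutive bradykinin receptor, was called in YFP-positive at 0.63 ± 0.18 (adjusted p = 0.0366), with array values of 5.12, 4.55 and 4.74, against 4.08 and 4.28 in total marrow. Cpm, a membrane carboxypeptidase that trims kinins, changed by −3.33 ± 0.11 in YFP-positive and −3.42 ± 0.11 in wild type.

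Among 14 peptide precursors and chemokines that the membrane peptidases are known to cut, 2 were higher and 1 lower in YFP-positive and in wild type, and 4 higher and 1 lower in YFP-negative, beside 29.5%, 24.3% and 26.2% of all rows called in YFP-positive, wild type and YFP-negative. Cxcl12, a Dpp4 substrate, was higher by 6.90 ± 0.11 in YFP-positive, 6.96 ± 0.11 in wild type and 7.68 ± 0.14 in YFP-negative. It read between 12.28 and 12.47 in the YFP-positive and wild-type arrays, against 5.51 and 5.35 in total marrow. Cxcl10, an interferon-induced chemokine, was higher by 2.55 ± 0.44 in YFP-positive and 2.78 ± 0.44 in wild type, and Ccl5, a T cell chemokine, was lower by −4.73 ± 0.29 in YFP-positive and −4.53 ± 0.29 in wild type. Penk, the enkephalin precursor, whose products aminopeptidase N and neprilysin degrade, was the call of this list between sorted groups. After loess it read 6.60 in the YFP-negative array, 4.14, 3.56 and 4.63 in YFP-positive and 3.48, 3.07 and 3.84 in wild type, against 4.75 and 4.29 in total marrow. The YFP-negative array lay above all others, as it did on deposited values with 5.60 against at most 4.77, by 2.50 ± 0.43 over YFP-positive (limma adjusted p = 0.0295), 3.14 ± 0.43 over wild type (adjusted p = 0.0179) and 2.08 ± 0.46 over total marrow (adjusted p = 0.0142). Penk and Anpep thus both passed the test as higher against either other sorted group, on the same 1 YFP-negative array. Against wild type Anpep kept its call in 8 of 17 alternatives, and Penk was not run under the alternatives. Cpd, a carboxypeptidase of the secretory pathway, was called lower in YFP-negative than in YFP-positive (−0.83 ± 0.16, limma adjusted p = 0.0408).

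**Figure D4:**
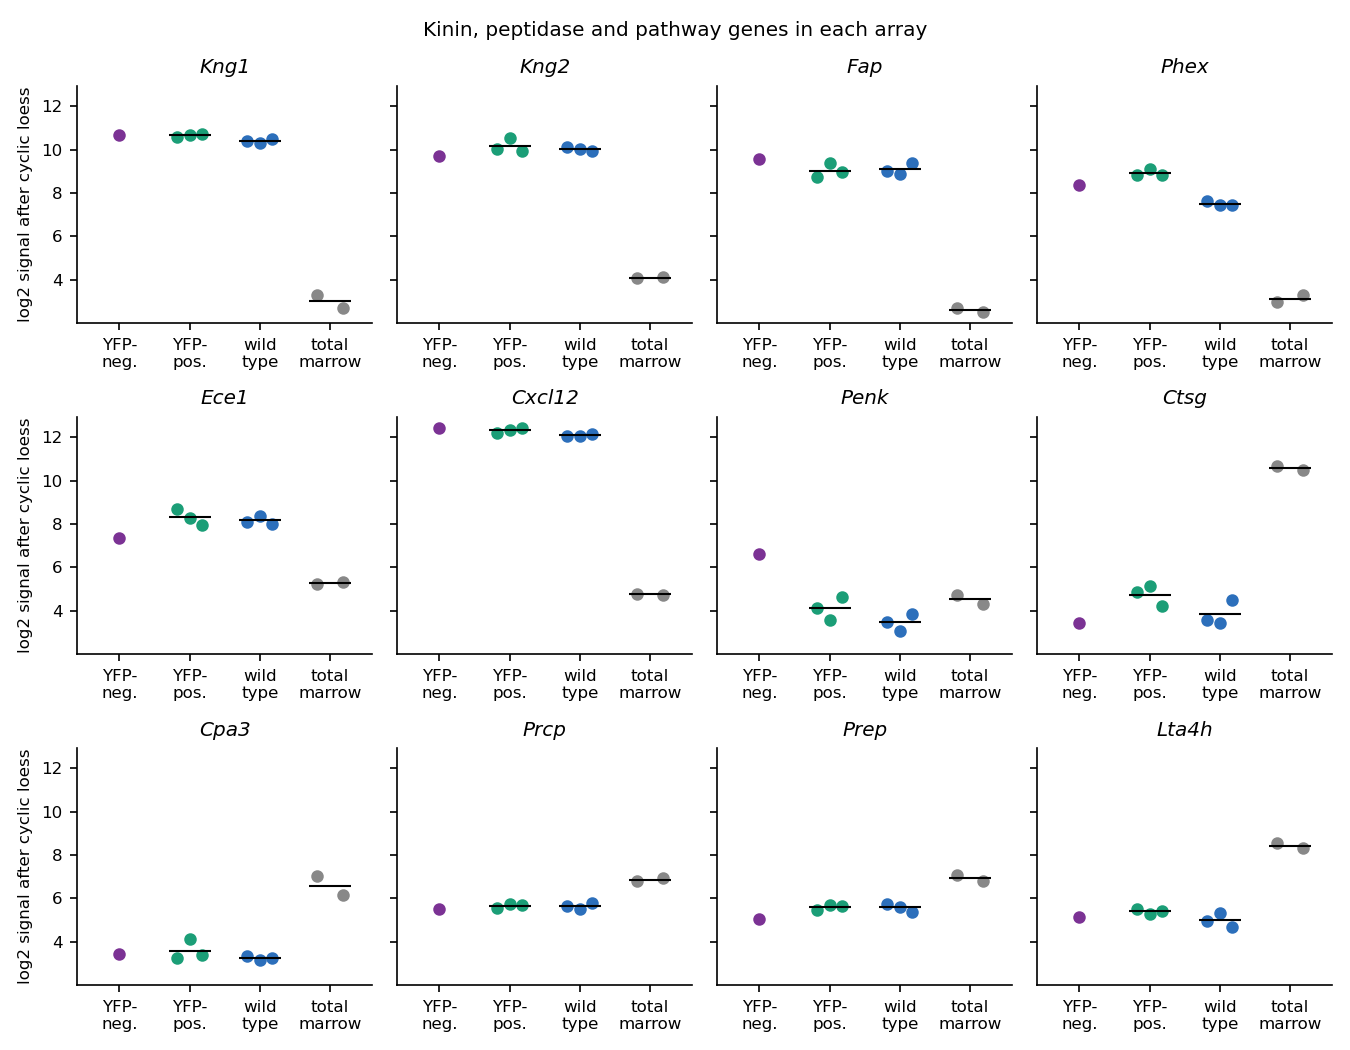
Log2 signal after cyclic loess (vertical axis) of 12 kinin, peptidase and pathway genes in each of the 9 arrays, with 1 dot per array and a horizontal line at the mean of each group with more than 1 array. Kng1, Kng2, Fap, Phex, Ece1 and Cxcl12 are high in all 7 sorted arrays, Ctsg, Cpa3, Prcp, Prep and Lta4h are high in total marrow, and Penk is highest in the YFP-negative array at 6.60.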

How the data were processed

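The deposited table holds log2 signals, 1 per array row and array, made by the authors with Affymetrix Expression Console 1.3.1 and RMA, per the submitters' processing notes. Per the labels' protocols, RNA was amplified with a NuGEN Ovation Pico kit before hybridisation. Whether the 9 arrays were summarised together is not given in the sources used here. Of 35556 rows, the 21789 that the platform annotation pairs with exactly 1 gene symbol were tested. Rows with several symbols (1621) or none (12146) were left out, and 21698 Entrez identifiers matched the RefSeq gene table.

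From these values limma (3.58.1, R 4.3.3) was fitted over all 9 arrays, separately on deposited and on loess values. Each fit had a mean per group, default eBayes and 5 residual degrees of freedom. Prior degrees of freedom were 2.50 for deposited and 2.27 for loess values. Tests were two-sided, with Benjamini-Hochberg adjustment over all rows tested. A row was called under an adjusted p of 0.05. Comparisons with the YFP-negative array used limma's cyclic loess on the same rows. The median of all values (4.43 deposited, 4.53 after loess) served as a stated cut for weak signal, not a detection limit. Arrays have no read depth, so their number limits the precision. The labels do not tell whether arrays of a group came from separate animals, so the p-values measure the spread between these samples, which may be technical.

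The members, the gene lists, the markers and the tests were chosen with earlier results of these data known. The genes named were all members, up to 4 called genes of each list with the largest change per comparison (or 2 with the smallest p), the gate genes Il7, Icam1 and Ptprc, and the 5 genes most correlated with Agt and with Enpep. Adm, Agtrap, Mpo and Vpreb1 values were added after they were seen. The fit to deposited values was tested on simulated data. Alternatives were other scalings, a filter on weak rows, all rows of the table, array weights, trend and robust moderation, only the groups compared, the replicate number as a block, and leaving out each array.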

Additional observations from a re-analysis of the deposited data

Results flagged for a closer look

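Anpep, the gene of aminopeptidase N, was singled out because its change over total marrow differed between sorted groups by limma's test of that difference. The YFP-negative array exceeded YFP-positive by 2.82 log2 units after loess (adjusted p = 0.0156, 7.80 in the YFP-negative array against 4.70 to 5.46 in the 3 YFP-positive arrays), in a comparison where 3.98% of all rows were called. It exceeded wild type by 1.75 log2 units (adjusted p = 0.0457, 7.80 against 5.64 to 6.45 in the 3 wild-type arrays), where 4.56% of all rows were called. Both rest on 1 YFP-negative array. No group held 4 or more arrays, so single arrays that stand apart within a group were not tested.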

How the results depend on the processing

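Agt, Mme, Enpep and Dpp4 kept their direction and their call against total marrow under every alternative run, with changes of 6.13 to 6.91, 6.998 to 7.56, 2.23 to 3.14 and −3.86 to −3.15 in YFP-positive, and so did Anpep in wild type (1.99 to 2.38) and in YFP-negative (2.53 to 3.97). Anpep in YFP-negative minus YFP-positive lay between 1.52 and 3.05 and kept its call in 15 of 17 alternatives, and in YFP-negative minus wild type between 0.35 and 1.95 with 8 of 17. Anpep in YFP-positive minus total marrow lay between 0.76 and 1.13 and kept its call in 12 of 18, and Ace in YFP-negative minus total marrow in 7 of 17. The cause of the shifts below was not tested.

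On deposited values, where Agtr1a (−1.73, adjusted p = 0.0304) and Agtr2 (0.0134) were called lower in YFP-negative than in YFP-positive, the YFP-negative differences turned to −0.25 against total marrow, −0.20 against wild type and −0.59 against YFP-positive for Ace, to −0.47, −0.46 and −0.78 for Agtr2, to −0.46 against wild type and −0.63 against YFP-positive for Dpp4, to −1.14 against YFP-positive for Enpep and to −0.99 against wild type for Mme. Members called then numbered 5 in YFP-negative minus YFP-positive (1 higher, 4 lower) and 3 in YFP-negative minus wild type (0 higher, 3 lower), and rows called 16522 and 16353, with 15666 against total marrow. Median centring gave 0.27 for Agt, −0.025 for Enpep and 0.088 for Mme in YFP-negative minus YFP-positive, 0.00090 for Agtr2 in wild type minus total marrow, and 2512, 4458 and 8987 rows called in YFP-negative against YFP-positive, wild type and total marrow. Quantile normalization gave −0.044 for Enpep against YFP-positive, −0.033 for Mme against wild type, 0.0085 for Agtr2 in wild type minus total marrow, and 1683 and 1720 rows against YFP-positive and wild type. Cyclic loess gave 0.0062 for Agt in YFP-positive minus wild type.

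The labels do not tell whether the replicate number pairs the samples. Same-numbered YFP-positive and wild-type arrays had deviations correlated at −0.06, −0.03 and −0.01, and differently numbered ones at −0.12 to 0.16. With 3 arrays per group these values cannot decide it. With the replicate block, 0 members and 5 rows were called in YFP-negative minus YFP-positive (adjusted p = 0.0862 for Anpep), 0 members and 6 rows in YFP-negative minus wild type (0.142), the calls of Anpep in YFP-positive minus total marrow (0.106) and of Ace in YFP-negative minus total marrow (0.117) were lost, and Agtr1a turned to −0.14 in wild type minus total marrow, 0.057 in YFP-negative minus total marrow and 0.22 in YFP-negative minus wild type. Fits of only the groups compared called 0 members and 0 rows in YFP-negative minus YFP-positive, 0 members and 264 rows in YFP-negative minus wild type, and 8885 rows in YFP-negative minus total marrow. Over all rows of the table, 0 members were called in YFP-negative minus wild type and 1 row in YFP-positive minus wild type. Array weights called 2 members and 2091 rows in YFP-negative minus wild type. The filter on weak rows left 492 and 507 rows called in YFP-negative against YFP-positive and wild type, and trend and robust moderation 9 in YFP-positive minus wild type.

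Leaving out each array gave 0 to 2 members and 185 to 1722 rows called in YFP-negative minus wild type, 244 to 1221 rows in YFP-negative minus YFP-positive, 3817 to 6631 in YFP-negative minus total marrow, 3636 to 6622 in YFP-positive minus total marrow, 3398 to 5980 in wild type minus total marrow and 0 to 26 in YFP-positive minus wild type. Signs turned within the ranges for Ace (−0.10 to 0.015), Agtr1a (−0.17 to 0.23) and Agtr2 (−0.076 to 0.049) in wild type minus total marrow. They also turned for Agtr1a in YFP-negative minus total marrow (−0.090 to 0.045), YFP-negative minus wild type (−0.24 to 0.14), YFP-negative minus YFP-positive (−0.76 to 0.048), YFP-positive minus total marrow (−0.093 to 0.70) and YFP-positive minus wild type (−0.17 to 0.63). The same held for Agt (−0.19 to 0.0014) and Enpep (−0.37 to 0.55) in YFP-negative minus YFP-positive and for Mme in YFP-positive minus wild type (−0.041 to 0.11). None of these turned differences was called in the main comparison. The YFP-negative group cannot lose its only array in its own comparisons. Values of Agtr2 and of sorted-cell Dpp4 near the weakest signals limit what their differences can show.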
